A study of Caenorhabditis elegans with 6 samples.

Results

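The 10 genes described here are dod-17, dod-19, dod-20, dod-21, dod-22, dod-23 and dod-24, together with C32H11.4, F55G11.8 and K10D11.2. They were taken by gene name from the 22416 Caenorhabditis elegans genes with counts. By the descriptions in the deposited table, CUB_2 domain-containing proteins are encoded by 7 of them (dod-17, dod-21, dod-22, dod-24, C32H11.4, F55G11.8 and K10D11.2). The other 3 (dod-19, dod-20 and dod-23) are described as downstream of DAF-16. All 6 libraries came from pools of whole CL2006 worms, collected at day 6 of adulthood in the second generation of feeding at 20 °C. CL2006 carries pCL12, in which the muscle promoter of unc-54 drives a human amyloid beta minigene, and the marker plasmid pRF4. The 3 control pools ate HT115 bacteria with an empty vector (EV), and the other 3 ate HT115 bacteria expressing gtr-1 3'UTR RNAi. Batches 2, 3 and 4 each gave 1 library of either kind. The comparison asked whether RNAi against the neuronal receptor gene gtr-1 alters distant tissues. Whole pools mix tissues, so fewer cells of a type and less RNA per cell cannot be told apart.

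DAF-16 is the FOXO transcription factor of the worm insulin pathway. The insulin receptor DAF-2 signals through AGE-1 and the AKT kinases, which hold DAF-16 out of the nucleus. When that signal is low, DAF-16 raises a class of stress and longevity genes, while a second class, which includes dod-17 and dod-19 to dod-24, goes down. Many CUB-like proteins are predicted to be secreted, several are made in the intestine, and many of their genes respond to bacterial pathogens through the p38 kinase PMK-1. No library here came from a daf-2 or daf-16 mutant, so the name "DAF-16-repressed" comes from other work and was not examined in these libraries.

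Total counts ran from 43067539 to 59812227 per library. gtr-1 itself had counts of 32, 16 and 12 in the EV libraries of batches 2, 3 and 4, against 38, 26 and 11 in those given the RNAi. Its log2 fold change was 0.13 ± 0.30 (SE, edgeR adjusted p = 0.886). Because the target was not measurably lower, the treated libraries are called RNAi-labelled, and each direction below rests on that label. The submitters mention separate sets of worms but do not tie them to the batches, so a p-value here reflects only how far these 3 pairs vary, which may be technical.

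Of the 10 genes, 7 lie within 60.7 kb of chromosome IV, between positions 12921264 and 12981991 of WBcel235. In order along the chromosome they are C32H11.4, dod-21, dod-24, F55G11.8, dod-22, dod-17 and K10D11.2. The stretch holds 23 counted genes, and 6 further genes in it are described as CUB_2 domain-containing. dod-19 (411782 to 414759) and dod-20 (422433 to 424177) lie near each other on chromosome V, and dod-23 lies alone on chromosome II (8398161 to 8399164). The annotation placed no other gene over any of the 10. Their exons cover 741 bases in dod-23 to 1396 bases in dod-19. Reads shared between near-identical CUB genes could have been split or dropped by the counting, and the sequences needed to test this were not used here.

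The 10 genes differed widely in level, and 2 of them supplied most of the transcript. Levels between genes were compared as CPM (read counts relative to the TMM-scaled library total) per kilobase of annotated exon. dod-23 was at 249.5 ± 66.8 and dod-19 at 189 ± 64.8 CPM per kb (SD over the 6 libraries), and their ranges overlapped. dod-24 followed at 22.8 ± 4.03 CPM per kb, below both without overlap. dod-22 (14.6 ± 2.90) and C32H11.4 (11.9 ± 3.42 CPM per kb) overlapped each other and lay below dod-24. F55G11.8 was at 5.24 ± 1.00 CPM per kb, below the range of C32H11.4, and its range reached into that of K10D11.2 (2.79 ± 1.16). K10D11.2 and dod-17 (2.66 ± 0.492 CPM per kb) overlapped. dod-21 (0.273 ± 0.190) and dod-20 (0.246 ± 0.0863 CPM per kb) were the lowest, overlapped each other and lay apart from the rest. In summed CPM, which is not per length, dod-19 and dod-23 made up 77.8% to 88.0% of the total of the 10 genes.

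None of the 10 genes passed the test between treatments. By edgeR's quasi-likelihood test with Benjamini-Hochberg adjustment over 15519 genes, 0 were called higher and 0 lower at an adjusted p under 0.05. All genes tested gave 0.0902% called higher and 0% called lower. All 10 had passed the filter on low counts. They were chosen with earlier results of these data known, so the shares here and below are descriptions. At an unadjusted p under 0.05, edgeR gave 3 of the 10 higher (dod-22, K10D11.2 and F55G11.8) and 0 lower, beside 4.99% higher and 5.68% lower of all genes. DESeq2 called 0 higher and 0 lower, beside 1.57% and 0.619% of all genes. By unadjusted p (under 0.05), DESeq2 gave 2 higher and 0 lower, beside 634 and 438 of the 15519 genes tested. The log2 fold change lay above 0 for 8 of the 10, beside 41.6% of all genes tested. Their median log2 fold change was 0.23, and that of all genes tested was -0.03. Without the batch 3 pair the median was 0.41, without its EV library 0.47, and without its RNAi-labelled library 0.41. With a minimum count of 50, which dropped dod-20 and dod-21, it was 0.37. With batch blocked, a library left without its partner adds nothing to the treatment estimate. Fits without a single library, here and below, therefore largely repeat the treatment estimate of the fit without its pair.

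**Figure D1:**
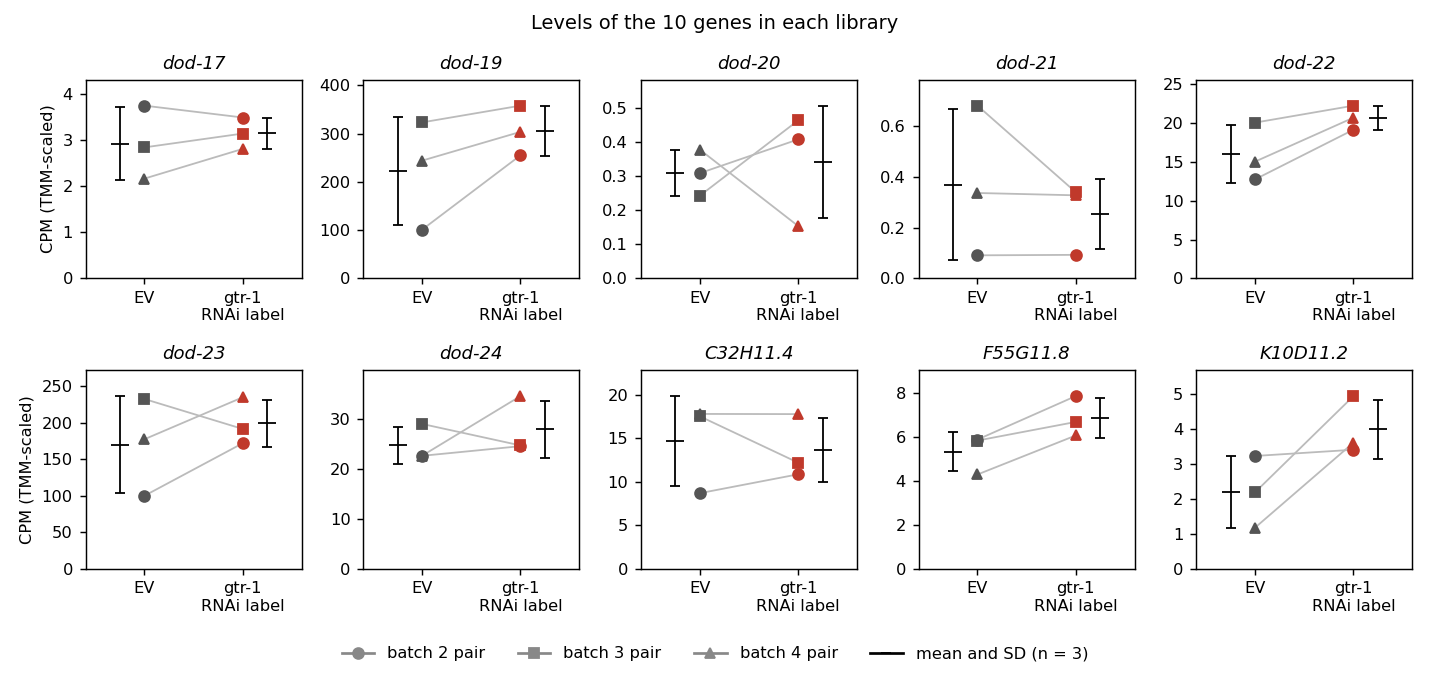
CPM (TMM-scaled, linear axes from 0) of each of the 10 genes in the 3 empty vector libraries (grey) and the 3 RNAi-labelled libraries (red). Lines join the libraries of a batch and bars give the mean and SD (n = 3). The groups are apart for F55G11.8 and K10D11.2, and the batch 2 EV library is low for dod-19 and dod-23.

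The 2 abundant genes were lowest in the EV library of batch 2. dod-19, a gene of no role stated in the table, was at 101, 323 and 244 CPM in the EV libraries of batches 2, 3 and 4. It was at 255, 358 and 303 CPM in the RNAi-labelled libraries. The groups overlapped, and within each batch the RNAi-labelled library was the higher. The dod-19 mean was 223 ± 113 CPM with EV and 305 ± 51.4 CPM in the RNAi-labelled libraries (SD, n = 3 each). On the log2 scale the fitted change of dod-19 was 0.59 ± 0.24 (SE, 1.51-fold, 95% interval 0.994 to 2.29, edgeR adjusted p = 0.475). By pair the log2 ratio was 1.34 in batch 2, and only 0.15 in batch 3 and 0.32 in batch 4. dod-19 passed in edgeR without the batch 2 pair (0.23, adjusted p = 0.0441) and without the batch 3 pair (0.83, adjusted p = 0.00683). Those fits called 745 of 15147 and 170 of 16177 genes higher, beside 14 of 15519 in the main fit.

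dod-23 was at 100.2, 233 and 178 CPM in the EV libraries of batches 2, 3 and 4, and at 172, 192 and 235 CPM in the RNAi-labelled libraries. The groups overlapped, and the batch 3 pair went the other way from the other 2 pairs. Its log2 ratios were 0.78, -0.28 and 0.40. The fitted log2 fold change of dod-23 was 0.30 ± 0.20 (SE, 1.23-fold, 95% interval 0.869 to 1.75, edgeR adjusted p = 0.616). Without the batch 3 pair, dod-23 passed in edgeR at 0.59 (adjusted p = 0.00212). That fit called 170 of 16177 genes higher, beside 14 of 15519 in the main fit.

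Summed over the 10 genes, the level was 259, 634 and 485 CPM in the EV libraries of batches 2, 3 and 4. It was 497, 624 and 625 CPM in the RNAi-labelled libraries. The groups overlapped, and the batch 2 EV library stood well below the other 5. The other 8 genes without dod-19 and dod-23 summed to 57.4, 78.4 and 63.8 CPM with EV and to 69.8, 74.7 and 86.0 CPM in the RNAi-labelled libraries.

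Among the 7 CUB-like genes of the 10, K10D11.2, F55G11.8 and dod-22 had the smallest p. K10D11.2 had counts of 177, 90 and 56 with EV in batches 2, 3 and 4, and of 183, 276 and 187 in the RNAi-labelled libraries. In CPM it was at 3.22, 2.19 and 1.18 against 3.40, 4.93 and 3.60, so that the groups did not overlap. The gap was narrow, since batch 2 moved little. The log2 ratios of K10D11.2 were 0.08, 1.17 and 1.61 in batches 2, 3 and 4, and the fitted value was 0.94 ± 0.33 (SE, 1.91-fold, 95% interval 1.07 to 3.43, edgeR adjusted p = 0.427). K10D11.2 passed in edgeR without the batch 2 pair (1.37, adjusted p = 0.00823), without its EV library (1.38, adjusted p = 0.0136) and without its RNAi-labelled library (1.37, adjusted p = 0.0254). In those fits edgeR called 745 of 15147, 679 of 15597 and 561 of 15673 genes higher. The main fit called 14 of 15519. With batch blocked, a library without its partner adds nothing to the treatment estimate, so these fits of K10D11.2 are not separate checks.

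F55G11.8 was at 5.88, 5.83 and 4.29 CPM with EV in batches 2, 3 and 4, and at 7.86, 6.68 and 6.07 CPM in the RNAi-labelled libraries. The groups of F55G11.8 did not overlap. Its log2 ratios were 0.42, 0.20 and 0.50, and the fitted value was 0.37 ± 0.13 (SE, 1.29-fold, 95% interval 1.02 to 1.64, edgeR adjusted p = 0.431). Groups apart in the higher direction were found for 2 of the 10 genes, F55G11.8 and K10D11.2, beside 2.92% of all genes. Groups apart in the lower direction were found for 0 of the 10, beside 3.07% of all genes.

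dod-22, which neighbours F55G11.8, was at 12.7, 20.03 and 15.02 CPM with EV and at 19.1, 22.2 and 20.7 CPM in the RNAi-labelled libraries. The groups overlapped through the batch 3 EV library. The log2 ratios of dod-22 were 0.59, 0.15 and 0.46, and the fitted value was 0.40 ± 0.11 (SE, 1.32-fold, 95% interval 1.09 to 1.595, edgeR adjusted p = 0.329). It had the smallest p of the 10 genes and ranked 643 of 15519. dod-19, dod-22, F55G11.8 and K10D11.2 were higher in all 3 pairs, 4 of the 10 genes beside 13.5% of all genes. None of the 10 was lower in all 3 pairs, beside 22.6% of all genes.

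**Figure D2:**
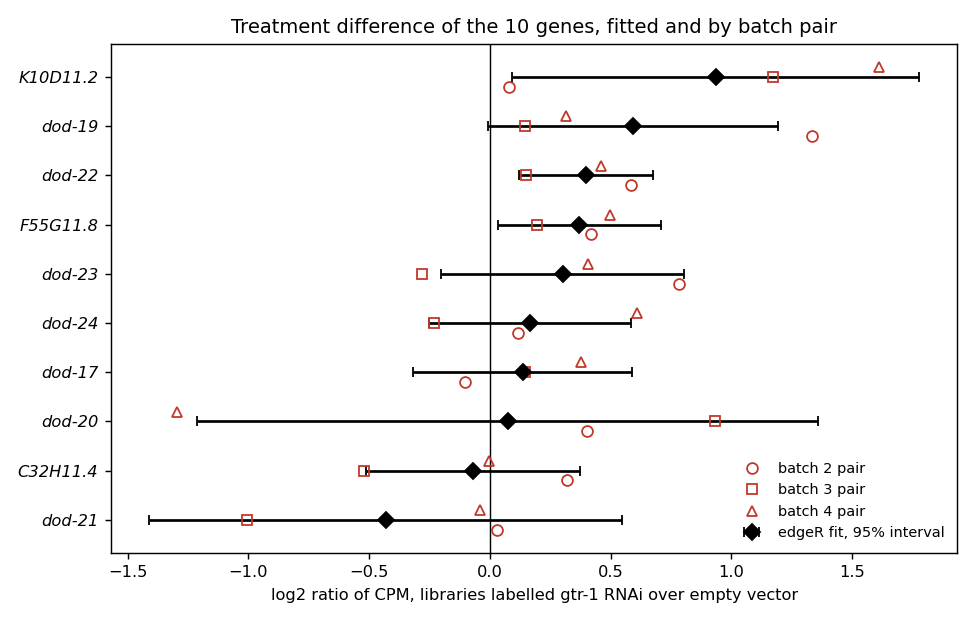
Log2 ratio of CPM in RNAi-labelled libraries over EV for each gene. Diamonds and bars are the edgeR estimate and its 95% interval, and open symbols the single batch pairs. The estimates run from -0.43 for dod-21 to 0.94 for K10D11.2, and for 6 genes the pairs fall on both sides of 0.

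The groups overlapped for the other 4 of these 7 CUB-like genes. dod-24, which had the highest mean level per kb of the 7, was at 22.7, 29.1 and 22.7 CPM with EV and at 24.6, 24.8 and 34.7 CPM in the RNAi-labelled libraries. Its groups overlapped, its log2 fold change was 0.17 ± 0.16 (SE, edgeR adjusted p = 0.729), and without the batch 4 pair the value was -0.06. C32H11.4 was at 8.68, 17.5 and 17.8 CPM against 10.8, 12.2 and 17.8 CPM. The batch 2 libraries of C32H11.4 were its lowest in either treatment, and its log2 fold change was -0.07 ± 0.17 (SE, edgeR adjusted p = 0.897). Without the batch 3 pair it was 0.16. dod-17 was at 3.75, 2.84 and 2.17 CPM with EV and at 3.49, 3.14 and 2.81 CPM in the RNAi-labelled libraries. Here the batch 2 libraries were the highest in either treatment, and the log2 fold change of dod-17 was 0.14 ± 0.18 (SE, edgeR adjusted p = 0.794). The 95% intervals were 0.840-fold to 1.498-fold for dod-24, 0.701-fold to 1.30-fold for C32H11.4 and 0.802-fold to 1.505-fold for dod-17.

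dod-21 and dod-20 were close to the limit of detection. dod-21 had counts of 5, 28 and 16 with EV in batches 2, 3 and 4, and of 5, 19 and 17 in the RNAi-labelled libraries. The log2 fold change of dod-21 was -0.43 ± 0.38 (SE, 95% interval 0.376-fold to 1.46-fold, edgeR adjusted p = 0.702), and it was 0.05 without the batch 3 EV library. dod-20 had counts of 17, 10 and 18 with EV and of 22, 26 and 8 in the RNAi-labelled libraries. Its pairs disagreed in sign. The fitted value of dod-20 was 0.07 ± 0.50 (SE, 95% interval 0.431-fold to 2.57-fold, edgeR adjusted p = 0.966), and without the batch 3 pair it was -0.36. A level 2-fold lower lay inside both intervals, and a level 2-fold higher lay inside that of dod-20 and outside that of dod-21.

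By batch pair, 9 of the 10 genes were higher in the RNAi-labelled library in batch 2, 6 in batch 3 and 7 in batch 4. Of all genes tested, 37.4%, 50.7% and 45.2% were higher in the respective pairs. The median log2 ratio of the 10 genes was 0.36 for the batch 2 pair, 0.15 for that of batch 3 and 0.39 for that of batch 4.

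Between batches, 1 of the 10 genes passed the test. Both batch 2 libraries lay below the other 4 for dod-21, dod-23 and C32H11.4, 3 of the 10 genes beside 31.1% of all genes. They lay above the other 4 for dod-17, 1 of the 10 beside 34.6% of all genes. An edgeR test of differences among the batches called that gene, dod-21 (adjusted p = 0.0337), 1 of the 10 beside 43.3% of all genes tested. C32H11.4 (adjusted p = 0.0552) and dod-19 (0.0749) came next. The mean over batches 3 and 4 was 4.58 times that of batch 2 for dod-21, 1.73 times for dod-19, 1.67 times for C32H11.4 and 1.54 times for dod-23, but 0.757 times for dod-17. The number called was between 0 and 6 of 10 when a library or pair was left out. It was 6 without the batch 2 RNAi-labelled library, 4 without the batch 3 pair, 4 without its RNAi-labelled library and 2 without its EV library. Over all genes, those fits called 7394 of 15673, 8036 of 16177, 5640 of 16219 and 5394 of 16289. The number of the 10 called was 0 without either library of batch 4. Over all genes it was 4018 of 16264 without the EV library of batch 4 and 3322 of 16227 without the RNAi-labelled one.

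Among the neighbours of the 7 genes on chromosome IV, dct-19 stood apart. dct-19 (12942933 to 12944526), another CUB_2 gene, lies next to dod-24. It had counts of 2, 2 and 0 with EV in batches 2, 3 and 4, and of 58, 28 and 47 in the RNAi-labelled libraries. The groups did not overlap, and 133 counts in all stood against 4. The ratio of the summed counts, scaled by library size, was 29.5 with an exact 95% interval of 11.3 to 110.0 that covers counting error only. Its fitted log2 fold change was 4.78 ± 0.67 (SE), with an edgeR adjusted p of 0.0996, above the threshold, and a DESeq2 adjusted p of 0.00139. With so few EV counts, dct-19 passed the filter on low counts only through the RNAi-labelled libraries. It was also named here for its small p, so these values describe dct-19 and are not an independent test of it. F55G11.4, which lies next to dod-17, was at 33.9, 75.0 and 71.9 CPM with EV and at 87.3, 86.3 and 116.9 CPM in the RNAi-labelled libraries. The groups of F55G11.4 did not overlap, and its log2 fold change was 0.75 ± 0.22 (SE, edgeR adjusted p = 0.348). C32H11.3, which lies just before C32H11.4, had the opposite sign, at 0.758 ± 0.0674 CPM against 0.375 ± 0.148 CPM (SD, n = 3 each). Its log2 fold change was -1.05 ± 0.36 (SE, edgeR adjusted p = 0.418). Within the 60.7 kb, 13 genes were tested, and 9 had a log2 fold change above 0, beside 41.6% of all genes. Without the 7 genes described here, 4 of 6 lay above 0. dct-19 is among the 9 and the 4, and the way it passed the filter left it no other sign.

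**Figure D3:**
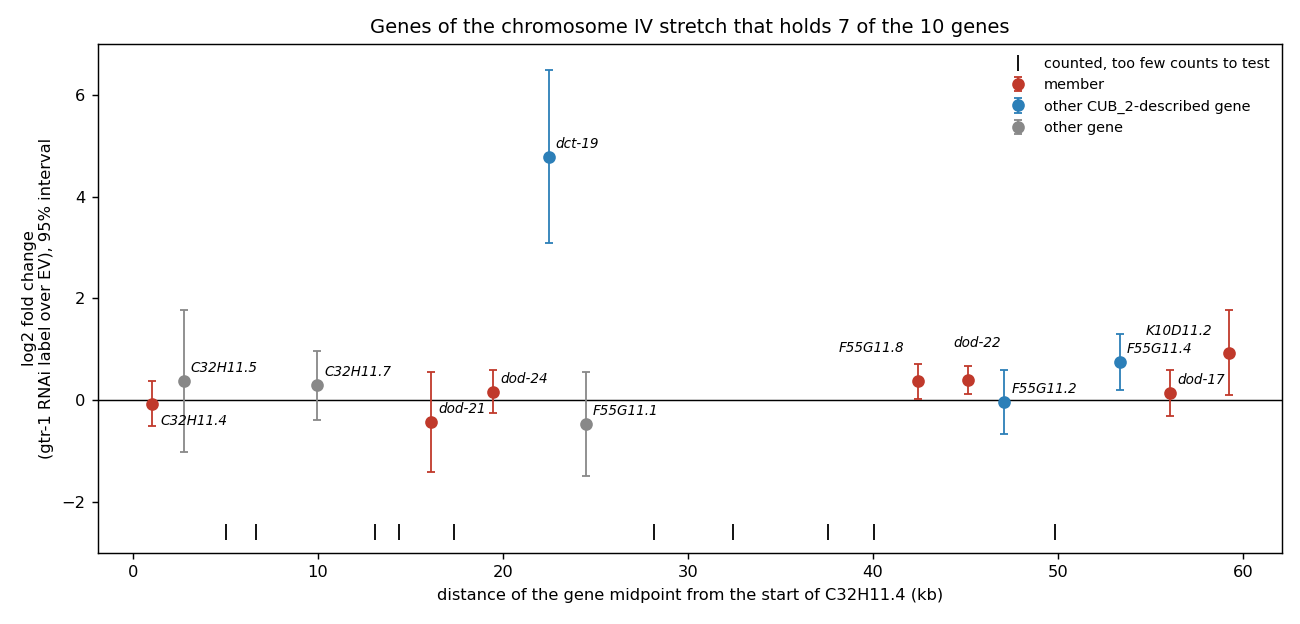
Log2 fold change with its 95% interval (edgeR) against distance along the 60.7 kb of chromosome IV. Red points are the 7 genes described here, blue points other CUB_2-described genes, grey points other genes, and ticks genes with too few counts. dct-19 is at 4.78, and the 7 genes lie between -0.43 and 0.94.

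The deposited table describes 54 counted genes as CUB or CUB_2 domain-containing, and 47 of them are not among the 10. This list was drawn up after the table's descriptions were seen. Of the 39 of these 47 that were tested, 0 were called by edgeR in either direction, with unadjusted p values under 0.05 in 9 higher and 3 lower genes. DESeq2 called 6 higher and 0 lower. The 9 and the 6 include dct-19, which passed the filter only through the RNAi-labelled libraries. Of all genes, edgeR gave 4.99% higher and 5.68% lower by unadjusted p, and DESeq2 called 1.57% and 0.619%. These shares also stand beside the lists below. Over the 39 the median was 0.05 on the log2 scale, with batch pairs at 0.42, -0.18 and -0.02. It was below 0 without the batch 2 pair (-0.137), its EV library (-0.136) or its RNAi-labelled library (-0.138), and 0.226 without the batch 3 EV library. The number of the 39 called by edgeR was 9 higher and 6 lower without the batch 2 pair, and 8 higher without the batch 3 pair. It was 8 and 4 without the batch 2 EV library, and 7 and 4 without the batch 2 RNAi-labelled library. It was 1 higher without either library of batch 3 alone.

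irg-4, an infection response gene that depends on PMK-1, was at 4.20, 6.68 and 6.56 CPM with EV and at 20.7, 15.2 and 21.5 CPM in the RNAi-labelled libraries. The groups of irg-4 were far apart, and its log2 fold change was 1.73 ± 0.23 (SE, edgeR adjusted p = 0.0894, DESeq2 adjusted p = 1.96e-11). ZK896.5 went from 8.68 ± 1.83 to 16.7 ± 3.00 CPM (SD, n = 3 each), with an edgeR adjusted p of 0.0762 and a DESeq2 adjusted p of 1.41e-06. W02G9.4 went from 20.96 ± 6.83 to 44.4 ± 9.30 CPM (SD, n = 3 each), with an edgeR adjusted p of 0.0996 and a DESeq2 adjusted p of 1.94e-10. C17H12.8, also used as a readout of PMK-1, went from 144 ± 56.3 to 261 ± 43.2 CPM (SD, n = 3 each), with an edgeR adjusted p of 0.109 and a DESeq2 adjusted p of 0.00271. F35E12.9 pointed the other way, from 5.85 ± 1.79 to 3.715 ± 1.82 CPM (edgeR adjusted p = 0.290).

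The CUB-described genes fall into groups along the genome, and these were drawn up after their values were seen. Genes at most 100 kb apart were joined, and 3 groups had 3 or more tested genes. On chromosome IV, 5 genes between 6818703 and 6833464 had a median log2 fold change of 0.92. All 5 lay above 0, beside 41.6% of all genes tested. DESeq2 called 2 of the 5 higher, C17H12.8 and C17H12.6. The larger group on chromosome IV, between 12872776 and 12995986, holds the 7 genes described here. Among its 22 tested genes, 15 lay above 0, including 5 of these 7 and dct-19, whose sign was fixed by the filter. The median of the 22 was 0.12. By batch pair that median was 0.418, -0.206 and 0.0829, so that batch 3 went the other way. On chromosome V, 9 tested genes between 13722233 and 13777772 had a median of -0.28. Of these 9, 7 lay below 0, beside 9058 of all 15519 genes tested. There the median was 0.30 in batch 2, and -0.72 and -0.37 in batches 3 and 4. dct-17, an exception in the chromosome V group, was at 0.98 ± 0.34 (SE, edgeR adjusted p = 0.420). The difference between the groups was not tested.

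**Figure D4:**
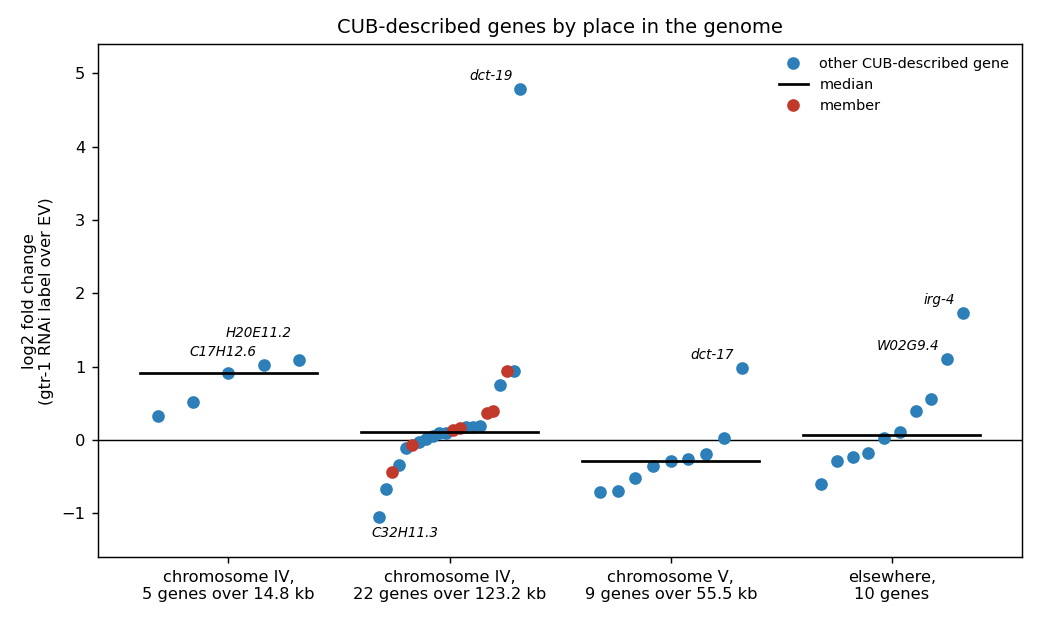
Log2 fold change (edgeR, RNAi-labelled libraries over EV) of the tested CUB-described genes by genomic group, with red points for the 7 genes described here and bars for the median. The medians are 0.92 and 0.12 for the groups on chromosome IV and -0.28 for the group on chromosome V.

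Further dod genes and DAF-16 targets gave 0 calls in edgeR. The other dod genes counted were dod-3, dod-6 and dod-18. dod-3 and dod-6 are known as genes that DAF-16 raises, unlike the 10, and the class of dod-18 was not examined here. These 3 had 0 called, with unadjusted p values under 0.05 in 0 higher and 1 lower genes and 0 in DESeq2. The lower one was dod-6, at -0.32 ± 0.11 (SE, edgeR adjusted p = 0.427). dod-3 was at -0.18 ± 0.22 and dod-18 at 0.10 ± 0.09 (log2 fold change, SE). Of 7 further genes of the class that goes down with active DAF-16, 1 was higher and 0 were lower by unadjusted p (under 0.05), DESeq2 called 1 higher, and the median log2 fold change was 0.12. That gene was the yolk protein vit-2, at 0.57 ± 0.14 (SE, edgeR adjusted p = 0.296). ins-7, an insulin-like peptide, was at 4.95, 9.75 and 10.6 CPM with EV and at 10.25, 11.77 and 10.69 CPM in the RNAi-labelled libraries. As with dod-19, the batch 2 EV library was the low one, and the log2 fold change of ins-7 was 0.44 ± 0.22 (SE, edgeR adjusted p = 0.541).

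DAF-16-induced genes pointed both ways. Of 19 tested of the 20 listed, edgeR called 0, with unadjusted p values under 0.05 in 1 higher and 7 lower genes, and DESeq2 called 1 higher and 3 lower. Their median was 0.01 on the log2 scale, with batch pairs at 0.25, -0.20 and -0.34. With a library or pair left out, that median ran from -0.22 to 0.09. The 3 lower in DESeq2 were the desaturase fat-7, the catalase ctl-2 and the ferritin ftn-1, and the 1 higher was the metallothionein mtl-2. Among 17 genes of the insulin pathway itself edgeR called 0, with unadjusted p values under 0.05 in 1 higher and 0 lower genes, DESeq2 called 0, and the median was -0.01. daf-16 was at 0.07 ± 0.03 and daf-2 at 0.03 ± 0.04 (log2 fold change, SE, edgeR adjusted p = 0.514 and 0.810). pqm-1, a transcription factor that acts on the class that goes down, was at 0.23 ± 0.05 (SE, edgeR adjusted p = 0.253), higher in all 3 pairs.

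Of the genes that depend on PMK-1, 14 were tested. Of these 14, edgeR called 0, with unadjusted p values under 0.05 in 7 higher and 0 lower genes, beside 4.99% and 5.68% of all genes. DESeq2 called 6 higher and 0 lower, beside 1.57% and 0.619% of all genes. The log2 fold change lay above 0 for 12 of the 14 and below 0 for 2. The median over the 14 was 0.51 on the log2 scale, with batch pairs at 1.17, 0.04 and 0.35. That median was 0.172, 0.173 and 0.170 without the batch 2 pair, its EV library and its RNAi-labelled library, and 0.791 without the batch 3 EV library. edgeR called 6, 6 and 5 of the 14 higher and 2 lower each time in the first 3 of these fits, and 2 higher and 0 lower in the last. It called 8 higher and 0 lower without the batch 3 pair, 2 higher and 0 lower without the RNAi-labelled library of batch 3, and 0 in each fit that lacked a library of batch 4 or both. The list shares irg-4, irg-5, irg-6, C17H12.8 and K08D8.5 with the CUB-described genes. Of these, irg-5 was at -0.70 ± 0.32 and irg-6 at 0.05 ± 0.44 (log2 fold change, SE, edgeR adjusted p = 0.509 and 0.972). lys-8, a lysozyme, was at 113, 154 and 131 CPM with EV and at 212, 230 and 227 CPM in the RNAi-labelled libraries. The groups of lys-8 were apart, and its log2 fold change was 0.76 ± 0.07 (SE, edgeR adjusted p = 0.0638). F01D5.5 was at 1.57 ± 0.19 (log2 fold change, SE, edgeR adjusted p = 0.0762). Of the 12 genes of the kinase pathway and its regulators, edgeR called 0, with unadjusted p values under 0.05 in 3 higher and 0 lower genes, DESeq2 called 0, and the median was 0.07. The 3 were the adaptor tir-1 (0.17 ± 0.05), the phosphatase vhp-1 (0.19 ± 0.06) and the kinase nsy-1 (0.11 ± 0.04, log2 fold change, SE). pmk-1 was at -0.02 ± 0.06 (SE, edgeR adjusted p = 0.901).

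Markers of tissues were read beside these values. edgeR called 0 of the tested markers of any tissue, and none of the listed markers was at 0 in all 6 libraries. Of 8 intestine markers tested (the listed opt-2 was not matched by name) 2 were higher by unadjusted p (under 0.05), and DESeq2 called the same number, act-5 and ifc-2. The summed level of the intestine markers was 643 to 942 CPM with EV and 720 to 984 CPM in the RNAi-labelled libraries. Their median log2 ratio was -0.11, 0.39 and 0.18 in batches 2, 3 and 4. Of 7 tested sperm markers 1 was lower by unadjusted p (under 0.05), with sums of 7.85 to 37.2 CPM with EV and 2.62 to 41.3 CPM in RNAi-labelled libraries. The other sums were 357 to 371 against 332 to 437 CPM for hypodermis, 3091 to 3947 against 2544 to 4051 CPM for body wall muscle, and 82.7 to 315 against 101 to 265 CPM for the pharynx. They were 369 to 429 against 341 to 464 CPM for neurons, 3757 to 5503 against 3400 to 5551 CPM for germline and oocytes, and 1406 to 1973 against 1350 to 1990 CPM for the embryo. The groups overlapped in each of these lists. The hypodermis sum includes rol-6, at 132, 161 and 159 CPM with EV and at 215, 181 and 121 CPM in the RNAi-labelled libraries. How much of the rol-6 signal came from the marker plasmid pRF4 was not tested. Whether pCL12, which carries the unc-54 promoter, added to the unc-54 signal in the body wall muscle sum was not tested either. Body wall muscle markers (7) and neuron markers (8) had none by unadjusted p (under 0.05). The remaining lists had 1 higher among 7 hypodermis markers, 1 lower among 6 of the pharynx, 1 lower among 8 of germline and oocytes, and 1 higher and 1 lower among 7 tested of the embryo. DESeq2 called none of these outside the intestine. The log2 fold change lay above 0 for 7 of 8 intestine markers (median 0.20). The same held for 5 of 7 hypodermis markers (median 0.17) and 4 of 6 pharynx markers (0.18). For neurons it was 4 of 8 (0.01) and for the embryo 3 of 7 (-0.05). For body wall muscle it was 1 of 7 (-0.15), for sperm 1 of 7 (-0.67) and for germline and oocytes 0 of 8 (-0.04). Of all genes, 41.6% lay above 0. The part of tissue make-up in the results on the 10 genes was not tested.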

How the data were processed

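Poly(A) libraries were made with a stranded KAPA kit, per the labels' protocols. Per the submitters' processing notes, cutadapt 2.10, TopHat2 2.1.1, HTSeq 2.01, DESeq2 1.36.0 and WBcel235 were used; their settings, and whether counting used the strand, are not given in the sources used here. Counts are present in 22416 of the 46934 rows that the authors deposited. The table also holds the authors' normalized signal, whose values equal the count divided by 1 factor per library, and the authors' batch-corrected score, per the file headers. Neither entered a result.

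Counts were tested with edgeR 4.0.16 in R 4.3.3 (filterByExpr with a minimum count of 10, TMM, estimateDisp, glmQLFit, glmQLFTest), with batch blocked (residual degrees of freedom: 2). DESeq2 1.42.0 was an alternative. Adjusted p is Benjamini-Hochberg over all 15519 genes tested. SE is the absolute log2 fold change divided by F's square root. Pairs follow the batch labels, and deviations of same-batch libraries were correlated across genes at 0.71, 0.47 and 0.66. The EV library of batch 3 correlated more with the RNAi-labelled library of batch 4 (0.52) than with its own partner. No library was a copy of another (chi-square per degree of freedom 23.4 to 145 within groups). The fit was also run on counts simulated from its own means and dispersions, which does not check it against these libraries. Coordinates and exon lengths are from the Ensembl annotation of WBcel235.

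The 10 genes, the lists and the tests were chosen with earlier results of these data known. By rule, the text names the 10 genes, gtr-1, daf-16, daf-2, pmk-1, up to 4 genes of each list described with the smallest p, up to 6 within 10 kb of the 10 genes, and the 5 genes most alike in pattern. Further genes (irg-5, irg-6, K08D8.5, C17H12.6, dct-17 among them) were named with their values seen. The list of proteins similar by sequence, protein identities and promoter motifs were not analysed here, and the table's CUB descriptions took the place of the first.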

Additional observations from a re-analysis of the deposited data

How the results depend on the processing

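No alternative called any of the 10 genes lower. dod-17, dod-19, dod-22, dod-23, F55G11.8 and K10D11.2 kept their sign in all 15 alternatives. These 15 are not separate checks. An adjusted p under 0.1 uses the main fit, so its signs could not differ. Fits without a single library largely repeat the treatment estimate of the fit without its pair. dod-24 turned without the batch 4 pair or either library (-0.0577, -0.0585 and -0.0579; 0.427 at the other end), C32H11.4 without the batch 3 pair (0.16), its EV library (0.22) or its RNAi-labelled library (0.16), and dod-21 without the batch 3 EV library (0.0450). With libraries left out, the lowest values were -0.667 for dod-21 and -0.257 for C32H11.4, and the highest for dod-20 was 0.649. dod-20 turned without the batch 2 pair (-0.07), its EV library (-0.07) or its RNAi-labelled library (-0.08), and without the batch 3 pair (-0.36), its EV library (-0.30) or its RNAi-labelled library (-0.36).

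Calls of the 10 genes ranged from 0 to 2 higher when a library or pair was left out, and their median from 0.21 to 0.47; it was 0.37 with a minimum count of 50. The genes that differed among batches were 0 to 6 with libraries left out, 5 with no filter, 0 with a minimum count of 50, 4 with DESeq2 size factors and 4 at an adjusted p under 0.1. In the last 4 of these, all genes gave 7253 of 21130, 6051 of 12185, 6983 of 15519 and 8664 of 15519.

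Over all genes, 14 were higher and 0 lower. Without the replicate block, 1 was higher and 0 lower; the block changed no call of the 10 genes, and without it 0 of them had an unadjusted p under 0.05. The numbers were 123 and 42 with no filter, 6 higher with a minimum count of 50, 132 and 69 with DESeq2 size factors, 244 and 96 in DESeq2, 79 and 35 at an adjusted p under 0.1, and 0 to 745 higher and 0 to 420 lower with libraries left out. Genes that differed among batches were 6721 and ranged from 356 to 8036 with libraries left out. The cause of these shifts was not tested.

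For the other CUB-described genes, calls were 5 higher with no filter, 5 with DESeq2 size factors, 6 in DESeq2, 4 at an adjusted p under 0.1, and 0 to 9 higher and 0 to 6 lower with libraries left out. For the fixed lists together (145 tested), they were 7 and 2 with no filter, 6 and 2 with DESeq2 size factors, 11 and 3 in DESeq2, 4 and 2 at an adjusted p under 0.1, and 0 to 20 and 0 to 7 with libraries left out, with a median of 0.00205 to 0.0635. The promoter windows were not run, as no promoter sequence was used. Depth limits dod-20, dod-21 and dct-19, whose counts stayed under 60 in each library.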

Other observations

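The 5 genes whose level over the 6 libraries was most like the mean pattern of the 10 genes were R04B3.2, Y116A8C.19, ZK899.6, pept-2 and K06A4.7. Pearson's r ran from 0.983 to 0.996 over 6 libraries, as a description; the points share library and depth, and the genes were picked from 15519 for this value. R04B3.2, described as a glycosylasparaginase, was at 10.7, 14.3 and 11.21 CPM with EV in batches 2, 3 and 4, and at 13.7, 15.01 and 14.1 CPM in the RNAi-labelled libraries. pept-2, a peptide transporter, was at 30.1, 38.8 and 31.2 CPM against 38.6, 39.7 and 39.4 CPM. In both genes the EV libraries of batches 2 and 4 were the low ones. Among the 10 genes, r with their own mean ran from -0.18 for dod-20 to 0.99 for dod-22.

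The genes within 10 kb of any of the 10 with small p included 3 near dod-23 on chromosome II, none of which passed. drd-1 stood at -0.32 ± 0.12 on the log2 scale (SE, edgeR adjusted p = 0.459) and F49E12.10 of -0.95 ± 0.27 (SE, edgeR adjusted p = 0.352). skpo-1, a peroxidase, was at -0.16 ± 0.10 (SE, edgeR adjusted p = 0.592). Of the 20 tested genes within 10 kb of any of the 10, edgeR called 0, with unadjusted p values under 0.05 in 2 higher and 3 lower genes, DESeq2 called dct-19 higher, and the median log2 fold change was 0.03. dct-19, also among the 2 higher, passed the filter only through the RNAi-labelled libraries.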
